A study of Mus musculus with 6 samples.

Results

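Transcripts of 10 genes of the Bcl2 family were followed in injured mouse femoral arteries: the survival genes Bcl2, Bcl2l1 and Mcl1, the pore formers Bax and Bak1, and the BH3-only genes Bbc3, Pmaip1, Bcl2l11, Bid and Bad. The genes were chosen by symbol, and all 10 were found among the 18476 genes of the deposited table. The arteries came from wild-type C57BL/6 mice, were taken 3 days after a wire had injured the vessel, and had been treated around the vessel wall with saline (the control) or with vasostatin-2, a fragment of the secretory-granule protein chromogranin A. Each of the 2 groups had 3 libraries, which the design text calls biological replicates and the labels place in batch 1, and the design asks which transcripts differ after local vasostatin-2. The animals' age and the peptide's dose are not given in the sources used here.

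The family controls the mitochondrial route to apoptosis. Bax and Bak1 can assemble into pores in the outer mitochondrial membrane, which release cytochrome c and lead to caspase activation. Bcl2, Bcl2l1 (which encodes Bcl-xL) and Mcl1 hold them in check, and the BH3-only proteins, which are induced or modified by stress, bind the survival proteins or activate the pore formers. In injured arteries apoptosis of medial smooth muscle cells is a known early event after wire passage, and infiltrating leukocytes, whose lifespan also depends on this family, enter the wall in the following days.

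Total estimated counts ran from 19333730 to 20105995 per library. The labels name vascular smooth muscle cells, but RNA was taken from the whole artery. Contractile smooth muscle markers (6 genes) summed to between 750.3 and 2015 TPM (the deposited level, scaled for transcript length and library), macrophage markers (6 genes) to between 4240.2 and 5966 TPM, and fibroblast markers (4 genes) to between 4711 and 8468 TPM. In such bulk RNA, fewer cells of a type and less RNA per cell cannot be told apart. A single library stood apart for each of 3 other marker lists. Red cell markers summed to 43386 TPM in saline replicate 2 and to between 1149 and 9491 TPM elsewhere. Schwann cell markers summed to 547 TPM in saline replicate 3 against 29.9 to 58.1 TPM elsewhere, and skeletal muscle markers to 1208 TPM in vasostatin-2 replicate 3 against 69.6 to 122 TPM elsewhere.

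The levels of the members spanned from about 4 to over 200 TPM. Mcl1 was the most abundant, with a mean of 224 TPM over the 6 libraries, and stood above all other members in each library. Bax and Bak1, the pore formers, followed at 143.6 and 143.5 TPM, and their order could not be told apart, since Bax was the higher in 3 of 6 libraries. Bad, a BH3-only gene whose product is held inactive by growth-factor signalling, was next at 67.5 TPM, then Bcl2l1 at 46.1 TPM. Neither overlapped its neighbours in the order. Bcl2l11 (encoding Bim), Bid, Bbc3 (encoding Puma) and Pmaip1 (encoding Noxa) had means of 21.2, 18.2, 11.8 and 9.51 TPM. Within these 4 each overlapped the next in range. Bcl2, which gave the family its name, was the lowest at 4.0 TPM, below every other member in each of the 6 libraries. In the whole table, mean TPM placed Mcl1 at the 96.4th percentile of genes and Bcl2 at the 37.4th.

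**Figure D1:**
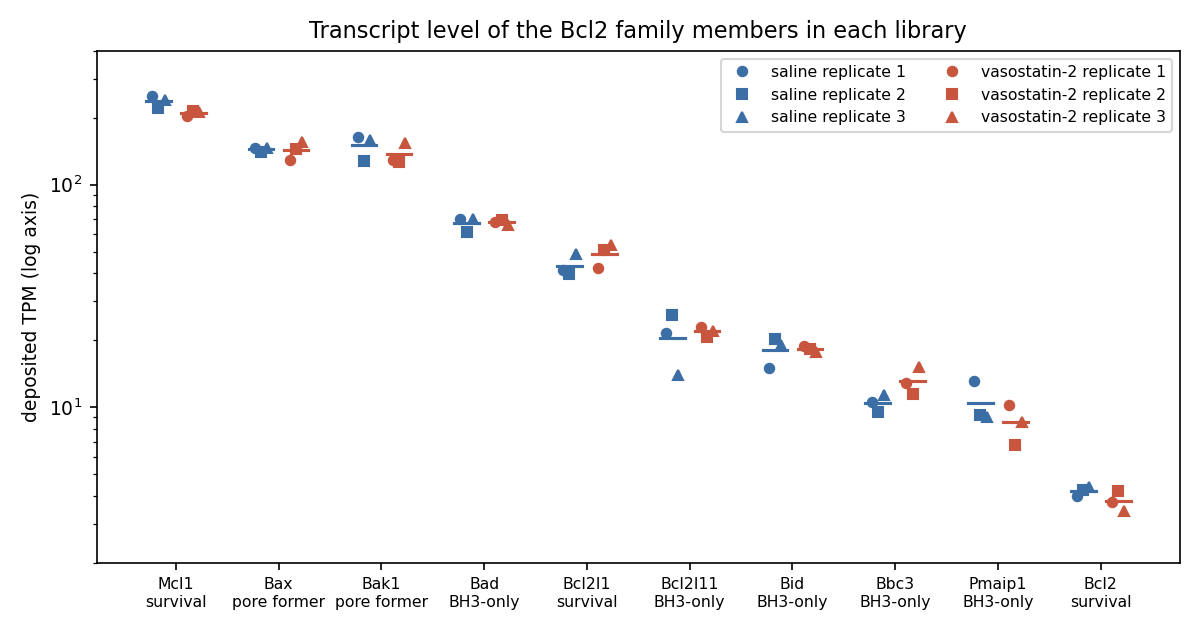
Deposited TPM of each member on a log axis, with 3 points per group (shapes mark replicates, colours the treatment) and a bar at each group mean. Mcl1 is highest at 204 to 249 TPM and Bcl2 lowest at 3.43 to 4.37 TPM, and for most members the points of the groups interleave.

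No member passed the test between vasostatin-2 and saline. The quasi-likelihood test of edgeR, fitted and adjusted by Benjamini-Hochberg over 14557 genes, called 0 of the 10 members, as it called 0% of all genes tested. At an unadjusted p of 0.05 it gave 1 of 10 members, where 7.14% of all genes did so. This 1 (Bbc3) was higher, as were 3.29% of genes, and 0 members were lower, where 3.85% of genes were. DESeq2 also called 0 members with adjustment, against 0.809% of the genes for which it gave an adjusted p, and gave 1 member (Mcl1, lower) unadjusted, where 6.64% of genes did so. Both limma fits called 0 members with adjustment, as they called 0 of all genes. Unadjusted, limma-voom gave 0 members, where 10.6% of genes did so, and limma on TPM gave 1 (Bbc3), where 6.48% did. In the authors' deposited table, too, no member had a q-value under 0.05, although 98 genes of that table did. The groups did not overlap in CPM (counts scaled to library size) for 2 of 10 members, against 12.8% of all genes. They were Bbc3, higher with vasostatin-2 as were 6.07% of genes, and Mcl1, lower as were 6.72%. Of the 10 fitted log2 fold changes 5 were above and 5 below 0, with a median of 0.0077 beside −0.00068 over all genes tested. With 10 members, 1 or 2 genes make up such a share, so these counts are near those of the table as a whole.

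**Figure D2:**
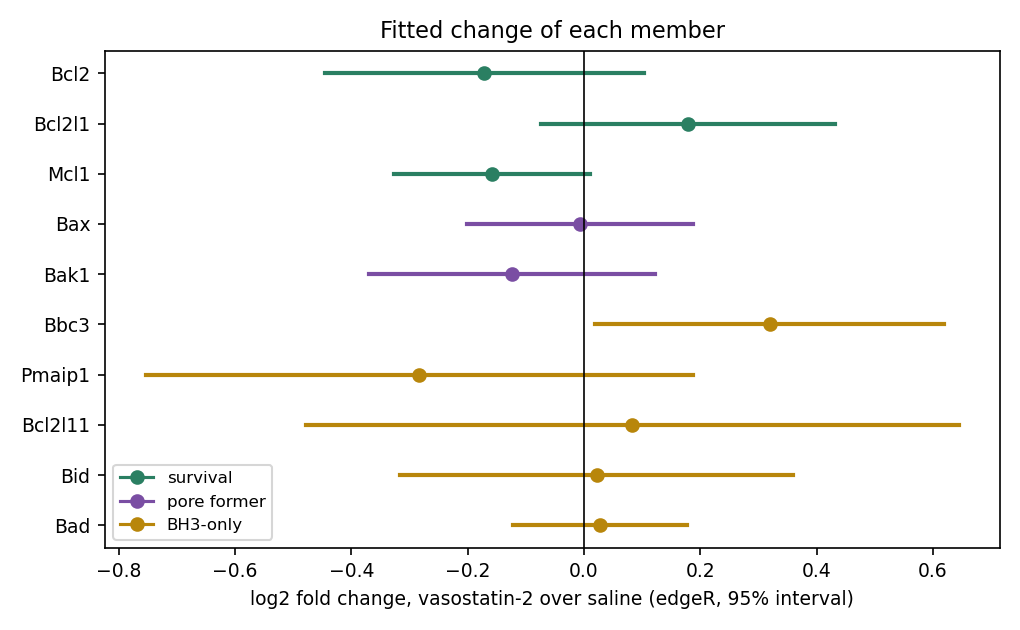
Log2 fold change of each member with vasostatin-2 over saline, as fitted by edgeR to 3 libraries per group, with its 95% interval and colours for the role. The fitted changes lie between −0.28 (Pmaip1) and 0.32 (Bbc3), and the interval of Bbc3 alone among the 10 members lies wholly on one side of 0 before adjustment.

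Mcl1 encodes a short-lived survival protein on which neutrophils and other myeloid cells depend. It lies on chromosome 3 from 95656944 to 95663179 (GRCm38.p6, as all positions here). Its CPM was 410.3, 395 and 397 in saline replicates 1 to 3 and 348, 367 and 363 in vasostatin-2 replicates 1 to 3. Every vasostatin-2 library thus lay below every saline library, and within each group the libraries were close together. The means were 401 ± 8.41 CPM with saline and 359 ± 10.2 CPM with vasostatin-2 (SD, n = 3 each). The fitted log2 fold change was −0.16 (SE 0.071, 95% interval −0.33 to 0.011). The edgeR fit gave an unadjusted value of 0.0628 and an adjusted p of 0.710. The DESeq2 fit gave an unadjusted value of 0.0129 and an adjusted p of 0.418. The authors' deposited table gives a log2 fold change of −0.16 with an unadjusted value of 0.0119 and a q-value of 0.497. Over 15 other settings of the fit the log2 fold change stayed between −0.17 and −0.13. On the TPM scale the separation also held, with 220.7 to 249 TPM with saline and 204 to 215 TPM with vasostatin-2.

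The neutrophil markers moved in the same direction as Mcl1. Their summed level (8 genes, all fitted below 0) was 875, 972 and 568 TPM in saline replicates 1 to 3 and 657, 219.6 and 309.5 TPM in vasostatin-2 replicates 1 to 3, so these groups overlapped. The neutrophil sum of vasostatin-2 replicate 1, the library with the lowest Mcl1, was above that of saline replicate 3. In CPM none of the 8 neutrophil markers separated the groups library by library, while in TPM Cxcr2 did so, with its lowest saline value just above its highest vasostatin-2 value of 19.86 TPM. Macrophage markers, another myeloid source of Mcl1, leaned the other way, at 4373, 5125 and 4240.2 TPM with saline and 4985, 5756 and 5966 TPM with vasostatin-2. The groups of this sum overlapped too, since saline replicate 2 lay above vasostatin-2 replicate 1. Of the 6 macrophage genes 3 were higher without overlap in CPM, and 1 (Cd14, log2 fold change −0.17) was fitted below 0. Red cell, T cell and Schwann cell markers (5 tested genes each) were also all fitted below 0. Contractile smooth muscle and skeletal muscle markers (6 genes each) were all fitted above 0. The Schwann cell sum was 547 TPM in saline replicate 3 and at most 58.1 TPM in any other library. The skeletal muscle sum was 1208 TPM in vasostatin-2 replicate 3. In vasostatin-2 replicates 1 and 2 it was 69.6 and 86.8 TPM, below the 88.0 to 122 TPM with saline. Of 4 fibroblast markers 3 were higher without overlap in CPM, though Dcn and Lum overlapped in TPM. Col1a1 was fitted below 0 (log2 fold change −0.16), and the fibroblast sums overlapped. The part of neutrophil, macrophage or other cell content in the Mcl1 difference was not tested.

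**Figure D3:**
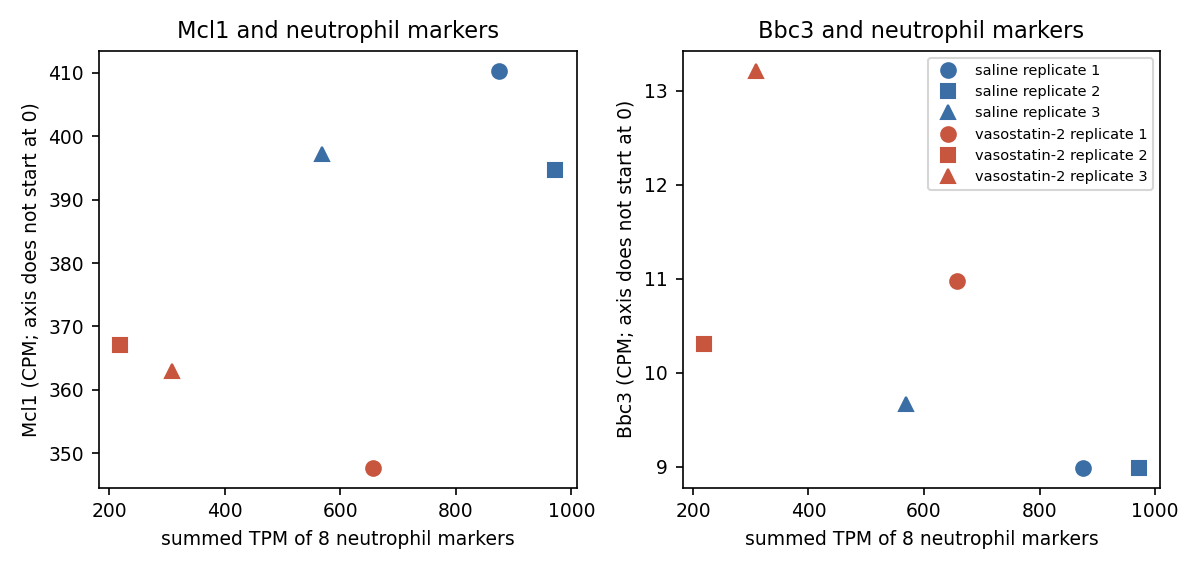
CPM of Mcl1 (left) and Bbc3 (right) in each library against the summed TPM of 8 neutrophil markers in that library. Colours mark the treatment and shapes the replicate, and the vertical axes do not start at 0. Mcl1 lies at 395 CPM or above in saline and at 367 CPM or below with vasostatin-2, while the neutrophil sums of the groups overlap.

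Bcl2l1, on chromosome 2 from 152758732 to 152833803, encodes the long-lived survival protein Bcl-xL. Its CPM was 49.6, 50.8 and 57.3 with saline and 51.6, 61.4 and 65.5 with vasostatin-2. The groups overlapped through vasostatin-2 replicate 1, which lay below saline replicate 3. The log2 fold change was 0.18 (SE 0.11, 95% interval −0.075 to 0.43), with an edgeR adjusted p of 0.764. Leaving out vasostatin-2 replicate 1 gave 0.27, and leaving out vasostatin-2 replicate 3 gave 0.10.

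Bcl2 itself, on chromosome 1 from 106538176 to 106714290, was at 13.2, 15.5 and 15.1 CPM with saline and 12.7, 14.4 and 11.8 CPM with vasostatin-2. The groups overlapped, and the log2 fold change was −0.17 (SE 0.12, 95% interval −0.45 to 0.10; edgeR adjusted p = 0.797). Of its 10 deposited transcripts 8 are RNAcentral entries, that is, catalogued non-coding RNAs. The deposited table places Bcl2 on the plus strand, while RefSeq's promoter table has it on the minus strand. Its estimated count was not whole in any of the 6 libraries, and the same held for Mcl1 and Bcl2l11. How many of the Bcl2 reads came from the messenger RNA was not tested. This limit also bears on the level of Bcl2 and on its ratio to Bax.

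Bax and Bak1 showed no separation by treatment. Bax, on chromosome 7 from 45461695 to 45466903, was at 57.5, 59.6 and 58.0 CPM with saline and 52.4, 58.7 and 63.2 CPM with vasostatin-2. The saline values lay inside the range of the vasostatin-2 values. Its log2 fold change was −0.0065 (SE 0.082, 95% interval −0.20 to 0.19), which bounds a change of the mean to between 0.870 and 1.14 times the saline level. Its sign turned when saline replicate 2 was left out (0.0083) and when vasostatin-2 replicate 1 was (0.062). Bak1, on chromosome 17 from 27019812 to 27028627, was at 153, 131 and 149.5 CPM with saline and 126, 123 and 149.3 CPM with vasostatin-2. Saline replicate 2 and vasostatin-2 replicates 1 and 2 formed the lower values. The log2 fold change was −0.12 (SE 0.10, 95% interval −0.37 to 0.12), with an edgeR adjusted p of 0.840. The table gave whole numbers for Bax and Bak1 in all 6 libraries.

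Bbc3 encodes Puma, a p53-inducible BH3-only protein that binds all the survival proteins. It lies on chromosome 7 from 16308398 to 16318334. CPM was 8.99, 8.99 and 9.67 in saline replicates 1 to 3 and 11.0, 10.3 and 13.2 after vasostatin-2. All 3 vasostatin-2 libraries were above all 3 saline libraries, with the highest value in vasostatin-2 replicate 3, the library with the skeletal muscle transcripts. The means were 9.22 ± 0.390 and 11.5 ± 1.52 CPM (SD, n = 3 each). The fitted log2 fold change was 0.32 (SE 0.13, 95% interval 0.020 to 0.62), or 1.25 times the saline level. The edgeR fit gave an unadjusted value of 0.0399 and an adjusted p of 0.684. The DESeq2 fit gave an unadjusted value of 0.0586 and an adjusted p of 0.773. In the authors' deposited DESeq2 comparison the unadjusted value was 0.0646 and the q-value 0.944. Without vasostatin-2 replicate 3 the log2 fold change was 0.21 (edgeR adjusted p = 0.978). Over the 15 other settings, by edgeR, DESeq2 or limma, the adjusted p lay between 0.491 and 0.9996. These values rest on 174 to 259 estimated counts per library.

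Bbc3 and Mcl1 are the 2 members whose groups separated, in opposite directions, so the 150 bases upstream of a start of each are shown. Both are RefSeq sequences of build GRCm38.p6 on the plus strand, for Mcl1 chr3:95658571-95658720 and for Bbc3 chr7:16309433-16309582, the first of 3 starts listed for that gene. Both stretches lie inside the annotated span of their gene, downstream of its outermost end. Capitals mark the GC box GGGCGG, a motif bound by Sp-family factors, on either strand (CCGCCC on the other). They were chosen after the values had been seen.
Mcl1: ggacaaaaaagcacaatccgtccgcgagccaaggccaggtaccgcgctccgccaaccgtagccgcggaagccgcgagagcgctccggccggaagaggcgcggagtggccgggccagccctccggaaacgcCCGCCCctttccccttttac
Bbc3: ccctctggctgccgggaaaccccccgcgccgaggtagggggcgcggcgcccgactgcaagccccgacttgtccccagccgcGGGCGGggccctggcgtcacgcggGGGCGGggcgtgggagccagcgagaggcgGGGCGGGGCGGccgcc
The Mcl1 stretch holds 1 GC box and has 69.3% G and C. The Bbc3 stretch holds 4 GC boxes, the last pair of which share a G, and has 82.7% G and C. Over the 250 bases upstream of each start, a GC box was present in 10 of 15 windows of 9 members, against 32.7% of 32851 windows of all genes. The motifs CCAAT (either strand, ATTGG on the other), TATAAA (either strand, TTTATA on the other) and CACGTG were present in 4, 0 and 2 of the 15 windows, and in 33.8%, 12.4% and 6.0% of all windows. Starts of the same gene share bases, and a match describes the letters only.

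Among the other BH3-only genes, Bad was the steadiest member. Bad, on chromosome 19 from 6941861 to 6951905, ranged from 31.6 to 33.6 CPM over the 6 libraries, so that its highest library was 1.06 times its lowest. Its log2 fold change was 0.027 (SE 0.063, 95% interval −0.12 to 0.18). Bid links death receptors to mitochondria once caspase-8 has cut it. Bid, on chromosome 6 from 120893119 to 120917062, was at 13.3, 19.4 and 16.9 CPM with saline and 17.4, 16.7 and 16.3 CPM with vasostatin-2. The vasostatin-2 values lay inside the saline range, and the log2 fold change was 0.022 (SE 0.14, 95% interval −0.32 to 0.36). It was −0.11 without saline replicate 1.

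Pmaip1 encodes Noxa, which binds Mcl1 and favours its degradation. It lies on chromosome 18 from 66458604 to 66465558 and was at 16.4, 12.6 and 11.3 CPM with saline and 13.2, 8.76 and 11.1 CPM with vasostatin-2. Replicate 1 was the highest library in each group. The log2 fold change, −0.28, was the lowest of the 10 members, but its interval was wide (SE 0.20, 95% interval −0.75 to 0.19; edgeR adjusted p = 0.806). Leaving out saline replicate 1 gave −0.11, and leaving out vasostatin-2 replicate 1 gave −0.43.

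Bcl2l11 encodes Bim, a BH3-only protein that limits the life of myeloid cells and lymphocytes and is induced when survival factors are withdrawn. On chromosome 2 from 128126038 to 128162547, it was the most variable member. CPM was 50.2, 65.7 and 32.1 in saline replicates 1 to 3 and 54.9, 49.95 and 51.9 in vasostatin-2 replicates 1 to 3. Within saline the highest library was 2.04 times the lowest, while with vasostatin-2 this ratio was 1.10. All vasostatin-2 values lay inside the saline range. The log2 fold change was 0.083 (SE 0.24, 95% interval −0.48 to 0.64), 0.34 without saline replicate 2 and −0.15 without saline replicate 3. Those 2 libraries were also the ones with the high red cell and the high Schwann cell markers. Bcl2a1b, a survival relative abundant in neutrophils and macrophages, had its highest and lowest values in the same libraries, 57.7 CPM in saline replicate 2 and 18.2 CPM in saline replicate 3. Its close relatives did not share both ends. Bcl2a1a was highest in saline replicate 1 (4.45 CPM) and lowest in saline replicate 3 (2.04 CPM). Bcl2a1d was highest in saline replicate 2 (11.3 CPM) and lowest in vasostatin-2 replicate 1 (4.95 CPM). T cell markers (5 genes in the table) summed to 25.3, 36.1 and 13.2 TPM in saline replicates 1 to 3 and to 16.7, 19.0 and 12.04 TPM in vasostatin-2 replicates 1 to 3. Their highest value was in the library with the highest Bcl2l11, but their lowest was in vasostatin-2 replicate 3, where Bcl2l11 was at 51.9 CPM. The part of cell content in the spread of Bcl2l11 was not tested.

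Sums over roles described the balance of the family. The survival genes made up 40.3 ± 0.255% of the members' TPM with saline and 39.2 ± 1.22% with vasostatin-2 (SD, n = 3 each), and the pore formers 41.7 ± 0.913% and 41.5 ± 1.85%. The BH3-only genes made up 18.0 ± 1.05% and 19.3 ± 1.27%. In all 3 roles the groups overlapped. Of the summed TPM of Bcl2, Bcl2l1 and Mcl1, Mcl1 made up 84.5%, 83.4% and 81.9% in saline replicates 1 to 3. In vasostatin-2 replicates 1 to 3 it made up 81.6%, 79.6% and 78.9%. These shares did not overlap between groups, and they combine the differences in Mcl1 and Bcl2l1. The groups of Mcl1 itself had already separated, so the separation of its share is not an independent result. The ratio of Mcl1 to Bbc3 in TPM was 23.5, 23.1 and 21.1 with saline and 15.8, 18.7 and 14.1 with vasostatin-2. This pair was picked because its groups separated, so the separation of the ratio adds nothing to theirs.

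The ratio of Bax to Bcl2, often quoted as an index of readiness to die, was 36.7, 32.8 and 33.6 in TPM with saline and 34.2, 34.3 and 45.3 with vasostatin-2. Vasostatin-2 replicate 3 stood above the other 5 libraries, which lay between 32.8 and 36.7. The log2 ratio was 5.10 ± 0.084 with saline and 5.23 ± 0.23 with vasostatin-2 (SD, n = 3 each), a difference of 0.13 that was −0.0034 without vasostatin-2 replicate 3. In that library Bcl2, the denominator, was at its lowest (3.43 TPM) and Bax, the numerator, at its highest (156 TPM, against 129 to 147 TPM elsewhere).

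Other genes of the pathway were followed in 8 lists, and edgeR with adjustment called 0 members of any list, as did DESeq2. Of their 70 tested genes 22 were fitted above and 48 below 0. Over all 14557 genes tested, 7253 were fitted above and 7304 below 0. The groups did not overlap for 3 of the 70 in the higher direction, a smaller share than the 6.07% of all genes given above. In the lower direction they did not overlap for 16 of the 70, a larger share than the 6.72%. At an unadjusted p of 0.05 edgeR gave 2 higher genes (Sesn1 and Phlda3) and 4 lower ones (Birc3, Cflar, Fas and Sesn2), against 3.29% and 3.85% of all genes. The lists share libraries and controls, so their counts are not independent of each other. The remaining survival members of the family numbered 5. Bcl2l2, encoding the survival protein Bcl-w, did not overlap between groups, at 61.6 ± 4.56 CPM with saline and 55.5 ± 2.68 CPM with vasostatin-2 (log2 fold change −0.15, SE 0.079). Bcl2a1b and Bcl2a1d had log2 fold changes of 0.030 and −0.40, and their near-identical sequences make the split of reads between them uncertain. Of 9 tested death members and relatives 8 were fitted below 0, with a median of −0.13. The hypoxia-induced Bnip3 and Bnip3l, which act in mitophagy, had log2 fold changes of −0.10 and −0.077 with Bnip3 highest in saline replicate 2 (114 CPM). Bclaf1 was at 122 ± 8.34 and 111 ± 1.80 CPM with no overlap (log2 fold change −0.13). The other gene of that list without overlap, Bcl2l13, had a log2 fold change of −0.15.

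Downstream of the pore, 9 apoptosome and mitochondrial factors had a median log2 fold change of 0.010, with 5 above and 4 below 0. Cycs, which encodes cytochrome c, was at −0.16 (SE 0.071), and the channel genes Vdac1 and Vdac2 at −0.020 and 0.044, all with overlapping groups. In the same list 2 of 9 genes, Apaf1 and Aifm1, were lower without overlap, against 6.72% of all genes. Of the 6 caspases 5 were fitted below 0 (median −0.096). Casp8, the initiator of the death-receptor route, had no overlap between groups, at 121 ± 6.18 and 110.1 ± 7.35 CPM, and the log2 fold change of Casp9 was 0.16. All 6 caspase and death-receptor brakes were fitted below 0, with a median of −0.15. Cflar, which encodes the caspase-8 inhibitor c-FLIP, was at 75.9, 74.8 and 68.1 CPM with saline and 62.7, 63.0 and 63.1 CPM with vasostatin-2. Its groups did not overlap (log2 fold change −0.21, SE 0.066), and the edgeR fit gave an unadjusted value of 0.0149 and an adjusted p of 0.608. The log2 fold change was −0.12 for Birc6, whose groups did not overlap either, and −0.046 for Xiap, whose groups overlapped.

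Of 8 death receptors, ligands and adaptors 6 were fitted below 0 (median −0.13). In 4 of the 8 every vasostatin-2 library was below every saline library, a larger share than the 6.72% of all genes. Those 4 were Tnfrsf1a and Ripk1, named for their abundance, and Fas and Tnfrsf10b, named after their values were seen. Tnfrsf1a, the main receptor of tumour necrosis factor, was at 288 ± 17.5 and 258 ± 4.02 CPM (log2 fold change −0.16, SE 0.075). Tnfsf10, the ligand of Tnfrsf10b, had a log2 fold change of −0.038, and Ripk1, a kinase of the receptor complex, one of −0.095.

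The p53 response list, which bears on Bbc3 and Pmaip1 as known p53 targets, was split in direction. Of 16 tested genes 7 were fitted above and 9 below 0 (median −0.027). Sesn1 was at 83.5, 100.1 and 74.4 CPM with saline and 122, 119 and 113 CPM with vasostatin-2. Its groups did not overlap. The log2 fold change was 0.46 (SE 0.11), with an unadjusted value of 0.00457 and an adjusted p of 0.528 by edgeR. Ccng1 was higher without overlap by 0.12, while Cdkn1a, the cell-cycle inhibitor p21, was at −0.029 with overlapping groups. In the same list 4 of 16 genes, Mdm2, Sesn2, Zmat3 and Ei24, were lower without overlap, against 6.72% of all genes. Another 3 of the 16, Sesn1, Ccng1 and Pidd1, were higher without overlap, against 6.07%. Both shares were above those of all genes. Of 11 regulators of family level, which include Trp53 and the ligase Huwe1 that marks Mcl1 for degradation, 4 were fitted above and 7 below 0 (median −0.043). Huwe1, Usp9x and Bag6 had log2 fold changes of −0.099, −0.12 and 0.080, and no gene of this list separated the groups.

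**Figure D4:**
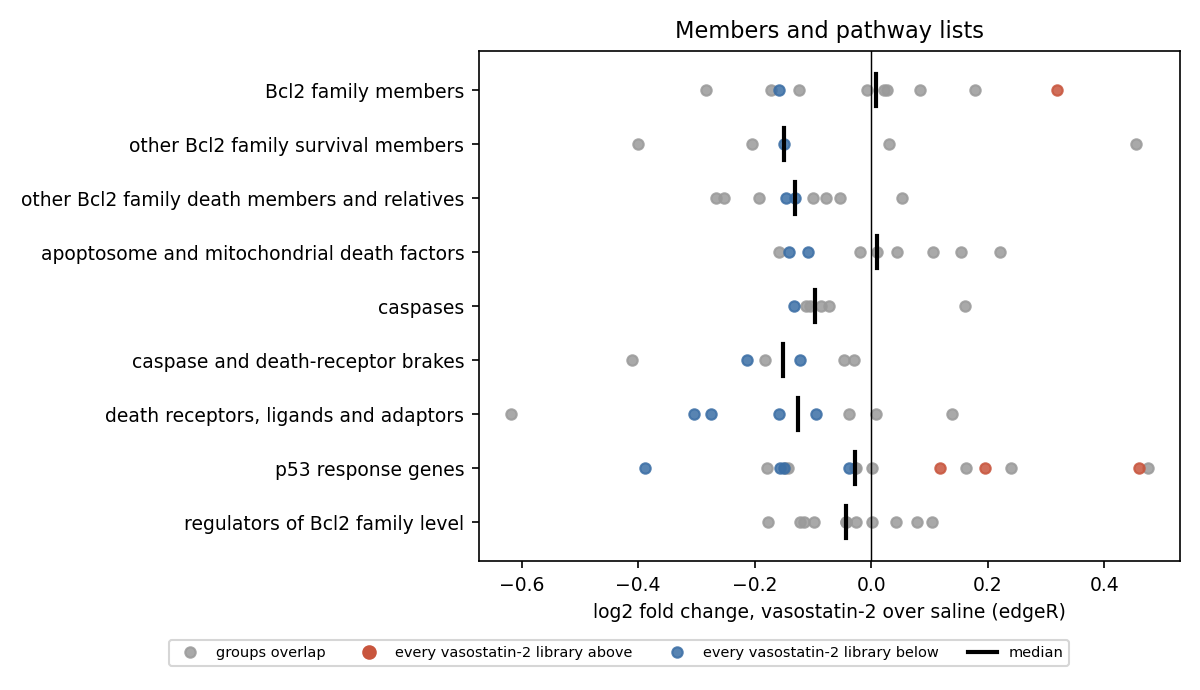
Log2 fold change (edgeR, vasostatin-2 over saline) of every tested gene in the member list and in 8 pathway lists, with a black bar at each list's median. Coloured points are genes whose libraries do not overlap between groups, and grey points are the rest. The medians lie between −0.15 and 0.010, and no point passed the adjusted test.

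The genes most like Mcl1, Bcl2 and Bax across the 6 libraries were taken by Pearson's r of log2 CPM as a description, among the 13763 genes that averaged 1 CPM or more. For Mcl1 they were Nasp, Plaur and Mrpl54 (r = 0.986, 0.986 and 0.983; Spearman's rho = 1.00, 1.00 and 0.943). For Bcl2 they were Zfp84, Car6 and Selenot (r = 0.980, 0.978 and 0.976; rho = 1.00, 1.00 and 0.943). For Bax they were Slc26a6, Spa17 and Trim25 (r = 0.990, 0.987 and 0.974; rho = 0.771, 1.00 and 0.829). The closest match of a gene had a median r of 0.993 over all these genes, so none of the 3 members had a match closer than usual.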

How the data were processed

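Per the labels' protocols, total RNA of injured arteries was extracted with TRIzol, enriched for mRNA with oligo(dT) beads and sequenced on a BGISEQ instrument. Build GRCm38.p6, HISAT2 2.1.0 and DESeq2 1.26.0 are named in the submitters' processing notes. The counting tool and strandedness are not given in the sources used here, so reads of genes that overlap a member (Cox4i2, Ggnbp1, Gpr137 and Acoxl among protein-coding genes) cannot be told apart by strand. The authors deposited estimated counts (65.6% of them whole), TPM and FPKM values per library. Their own DESeq2 comparison was deposited beside these, as a log2 fold change, a q-value and a p-value per gene. The sign of the deposited log2 values matched vasostatin-2 minus saline in 99.3% of rows with a total of at least 60 counts.

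Estimated counts were rounded to whole numbers. edgeR 4.0.16 (R 4.3.3) ran filterByExpr, which kept 14557 genes and all 10 members, TMM scaling (factors 0.985 to 1.01) and robust quasi-likelihood fits with treatment as the only term, adjusted by Benjamini-Hochberg over all genes. The SE is the log2 fold change over the square root of F. Levels between genes use TPM, and tests use counts. DESeq2 1.42.0 and limma 3.58.1 were alternatives, and the edgeR script was tested on simulated data. Libraries of a group differed by 15.4 to 79.4 in chi-square per gene, so none was counted as a duplicate. The p-values set the difference between the groups against the spread between these libraries.

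The members, lists and tests were chosen with earlier results of these data known. Named genes were all members, the 3 most abundant genes of each list plus any called, and the 3 closest patterns of Bcl2, Mcl1 and Bax. A gene that this rule names is not reported here. Fas, Tnfrsf10b, Birc3, Phlda3, Sesn2, Mdm2, Zmat3, Ei24, Pidd1, Bcl2l13, Bcl2a1a, Apaf1, Aifm1, Cxcr2, Cd14, Dcn, Lum and Col1a1 fall outside the rule and were named after their values were seen. A ratio of Bax to Bcl2 from counts per length was not run, as no gene length is in the columns used.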

Additional observations from a re-analysis of the deposited data

How the results depend on the processing

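No member was called under any of the 15 other settings of the fit, which gave 150 member values. In 6 of them the sign differed from the main fit, all among Bax, Bid and Bcl2l11, and the other 7 members kept their sign in every setting run. The cause of these changes of sign was not tested. Leaving out 1 library gave log2 fold changes from −0.072 to 0.062 for Bax, from −0.11 to 0.15 for Bid and from −0.15 to 0.34 for Bcl2l11, and leaving out both replicates 3 gave −0.14 for Bcl2l11. The median of the members was −0.080 without both replicates 3 and ran from −0.052 to 0.0090 without single libraries. DESeq2 called 113 genes of the table (49 higher, 64 lower), and leaving out single libraries gave edgeR counts of 0 to 2, with the 2 calls (1 higher, 1 lower) without saline replicate 2 and 0 without any other library. The Bax to Bcl2 difference ran from −0.0034 to 0.20 without single libraries, and 8 to 10 of the 10 members kept their place in the order of levels. With the replicate block the count was 0 and the members' median 0.0082. Same-numbered libraries deviated with correlations of −0.12, 0.025 and 0.027 over genes, and differently numbered ones with −0.22 to 0.22. This gave no sign of pairing by number, but with 3 libraries per group it cannot exclude pairing. Groups of 3 libraries at this depth leave intervals of the members' log2 fold changes that reach −0.75 and 0.64.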
